A study of Mus musculus with 12 samples.

Results

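The genes described here belong to connective tissue and blood vessels: collagens and other matrix proteins, basement membrane components, endothelial surface proteins, and receptors and cytoskeletal proteins of fibroblasts and mural cells. They were taken by name, from a list of 37 genes. A probe set that named the gene alone was found for 35 of the 37, among 18193 genes named on the array. Fbn1 and Ccl19 were not analysed here. The brightest probe set of each gene, by mean log2 intensity over all 12 arrays, stood for it, and a gene was tested where that probe set exceeded log2 6.33, the median of all values, in at least 2 arrays. Of the 35 genes, 34 passed, among 12786 genes tested in all. The exception was Lamb1. Of the 34, 11 exceeded this level in unsorted lymphoma arrays alone, so they could not enter the test without being high there.

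The series profiled a mouse T cell lymphoma driven by ZMYM2-FGFR1, a fusion that places the kinase of the fibroblast growth factor receptor FGFR1 under constant activation, on Affymetrix Mouse430 2.0 arrays. The malignant side held 1 lymphoma sorted for GFP+Thy1+DP+ cells, 3 unsorted lymphomas in which over 90% of cells carried that phenotype, 1 array of the ZNF112 cell line, which was not sorted, and 2 arrays of leukemia stem cells (LSC). The lymphomas came from mice of the 3rd serial transplant, and the sorted lymphoma has a replicate number of its own, but the labels do not say whether it came from the animal of an unsorted one. LSC, taken out of the marrow or spleen of 2 to 3 leukemic mice per sample, were sorted as GFP+ and Lin-Sca-1+c-kit+. The normal side held 3 arrays of sorted Thy1+CD4+CD8+ double-positive (DP) thymocytes, each from 3 pooled Balb/c mice, and 2 arrays of hematopoietic stem cells (HSC), Lin-Sca-1+c-kit+ marrow cells of 5 pooled female Balb/c mice each. GFP was part of the gate for the diseased cells only. The strain of the diseased mice is not stated in the labels.

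Fibroblasts build the fibrous matrix of a tissue: fibrillar collagens form the fibres, proteoglycans of the decorin family coat and space them, and collagen VI forms the fine filaments around cells. Endothelial cells lie on a basement membrane of collagen IV, laminin and nidogen and are wrapped by contractile mural cells that carry the receptor PDGFRB. In lymphoid organs, reticular fibroblasts secrete chemokines that hold lymphocytes in place, and the high endothelium of lymph nodes displays sugar-bearing ligands through which lymphocytes enter. T cells and their precursors are not known as major makers of fibrillar collagen.

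The labelled cell types were checked against markers. All 10 T cell genes listed were above log2 6.33 in every lymphoma and DP array, with summed intensities of 97979 in the sorted lymphoma, 74444 to 80181 in the unsorted lymphomas and 144837 to 160144 in DP thymocytes. In the cell line, whose label names no surface phenotype, Cd8b1 measured 6.19, under that level, and Cd4 6.88, a little above it. Kit was high in LSC, at 12.31 and 10.99, against 11.01 and 11.43 in HSC, but 4 of 7 tested markers of stem and progenitor cells were lower in LSC and 8 of 10 T cell genes were higher. Array medians lay between 99.5 and 109 in the 8 lymphoma, cell line and DP arrays and between 44.3 and 46.2 in the 4 LSC and HSC arrays, so the sides appear to have been scaled apart and levels are set against each other only within a side. LSC 1 correlated less with the arrays of the T cell side than LSC 2 did, and the 2 LSC arrays had the widest spread of any group, with a root mean square SD over genes of 1.01, against 0.554 in HSC, 0.506 in the unsorted lymphomas and 0.153 in DP thymocytes. Across genes, the sorted lymphoma correlated by 0.943 with unsorted lymphoma 2, 0.871 with lymphoma 1 and 0.879 with lymphoma 3, and the unsorted ones with each other by 0.94 to 0.945.

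The unsorted lymphomas carried the matrix and vessel genes at far higher level than DP thymocytes did. Of the 34 genes tested, 26 were higher in the unsorted lymphomas and 0 were lower (limma, Benjamini-Hochberg adjusted p under 0.05), while 6.84% of all genes tested were called higher and 5.45% lower, 12.3% in either direction. The median log2 difference of the 34 was 2.72, against -0.03 over all genes. In 30 of the 34, all 3 lymphomas lay above all 3 DP arrays, as did 24% of all genes tested. These figures include the 11 genes that exceeded log2 6.33 in unsorted lymphoma arrays alone. Being high there let those genes into the test, so the counts are partly set by the filter. In 15 of the 26 the probe set stayed under log2 6.33 in every DP array, the dimmer part of all values, so the size of those differences is uncertain. Counting the sorted lymphoma as a 4th lymphoma replicate left 0 genes called, with 27 at an unadjusted p under 0.05. In bulk samples such as these, fewer cells of a type and less RNA per cell cannot be told apart.

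**Figure D1:**
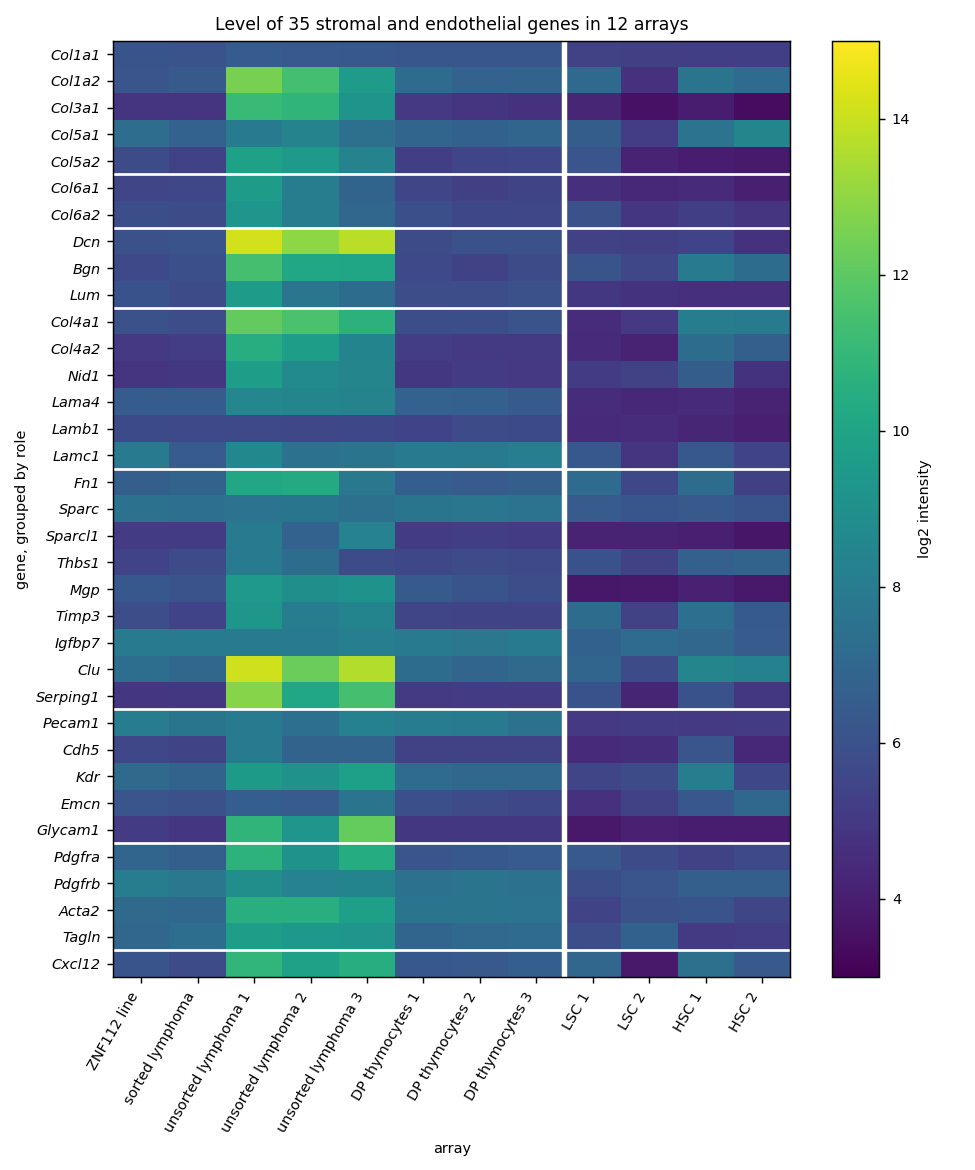
Log2 intensity of the 35 genes (rows, ordered by role) on each of the 12 arrays (columns), with colour running over log2 3 to 15. Most rows are bright in the 3 unsorted lymphomas and dim in the sorted lymphoma, the cell line and the DP thymocytes; the LSC and HSC arrays were scaled apart from the other 8 arrays, so their colours are comparable only with each other.

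Among the fibrillar collagens, 3 of 5 were called higher. Col1a2, the second chain of type I collagen, measured 12.53, 11.39 and 9.64 in unsorted lymphomas 1, 2 and 3, against 7.19, 6.78 and 6.81 in the DP arrays. The 3 tumours lay well above the thymocytes and were themselves widely spread, with a difference of 4.26 ± 0.77 (SE; adjusted p = 0.0101). Col3a1, the type III chain of distensible tissues and reticular fibres, measured 11.06, 10.85 and 9.19 in the lymphomas and 4.99, 4.86 and 4.71 in DP thymocytes, a difference of 5.51 ± 0.47 (adjusted p = 3.24e-04). Col5a2, a type V chain that sets fibre diameter, measured 9.88, 9.50 and 8.38 in the lymphomas, against 5.21, 5.50 and 5.58 in DP thymocytes, with groups that did not overlap and a difference of 3.83 ± 0.54 (adjusted p = 0.00315). Its partner chain Col5a1 was also above all DP arrays in all 3 lymphomas, at 7.97, 8.39 and 7.43 in the lymphomas, against 6.94, 6.71 and 6.93 in DP thymocytes, but its difference of 1.07 ± 0.41 did not pass (adjusted p = 0.134). Col1a1, the main chain of type I collagen, was nearly flat on its chosen probe set, with a difference of 0.18 ± 0.15 (adjusted p = 0.503).

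The beaded filament and proteoglycan genes moved the same way. Col6a1 averaged 8.17 ± 1.37 (SD, n = 3) in the unsorted lymphomas and 5.42 ± 0.12 (SD, n = 3) in DP thymocytes (adjusted p = 0.019). Its partner chain Col6a2 differed by 2.40 ± 0.55 (adjusted p = 0.0258). Dcn, decorin, a proteoglycan that binds collagen fibrils and TGF-beta, showed the largest difference among the 34: it measured 14.19, 12.96 and 13.75 in the lymphomas and 5.80, 5.996 and 5.98 in DP thymocytes, a difference of 7.71 ± 0.32, or 209-fold (adjusted p = 1.40e-05). Every DP array was under log2 6.33, and all 3 lymphomas were far above it. Bgn, biglycan, a relative of decorin, measured 11.47, 10.21 and 10.09 in the lymphomas, against 5.63, 5.34 and 5.74 in DP thymocytes, a difference of 5.02 ± 0.39 (adjusted p = 1.88e-04). Lum, lumican, which is also of this family, differed by 2.28 ± 0.51 (adjusted p = 0.0251).

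Basement membrane genes were called in 4 of 5 tested. Col4a1 and Col4a2, the 2 common chains of the type IV collagen network, are neighbours read in opposite directions from starts that lie 21 bases apart in RefSeq's GRCm38.p6. Their promoter windows, 250 bases before to 50 bases after each start, are chr8:11312777-11313076 on the minus strand for Col4a1 and chr8:11312555-11312854 on the plus strand for Col4a2, and overlap by 78 bases. They are shown because the pair was higher together in the lymphomas and lower together in LSC, with the CCAAT box, found on either strand (as CCAAT or ATTGG), in capitals.
Col4a1: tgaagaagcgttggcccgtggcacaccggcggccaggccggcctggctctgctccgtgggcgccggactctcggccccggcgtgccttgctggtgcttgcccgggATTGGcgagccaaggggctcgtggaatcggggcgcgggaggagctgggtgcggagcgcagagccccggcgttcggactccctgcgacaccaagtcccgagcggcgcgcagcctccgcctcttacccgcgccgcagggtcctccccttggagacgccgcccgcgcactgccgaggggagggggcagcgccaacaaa
Col4a2: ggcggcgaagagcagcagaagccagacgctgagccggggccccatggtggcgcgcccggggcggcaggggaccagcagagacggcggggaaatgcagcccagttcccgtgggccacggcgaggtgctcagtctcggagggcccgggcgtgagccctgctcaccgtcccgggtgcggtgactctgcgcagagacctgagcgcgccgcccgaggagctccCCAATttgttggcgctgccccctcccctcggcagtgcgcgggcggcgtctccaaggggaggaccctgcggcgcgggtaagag

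Each of the windows held 1 copy of the motif. Col4a1 measured 12.10, 11.58 and 10.70 in unsorted lymphomas 1, 2 and 3, against 5.88, 5.86 and 6.07 in the DP arrays, a difference of 5.52 ± 0.33 (adjusted p = 5.58e-05). Col4a2 measured 10.49, 9.73 and 8.40 in the lymphomas, against 5.17, 5.04 and 5.05 in DP thymocytes, a difference of 4.45 ± 0.47 (adjusted p = 8.79e-04). Both chains were highest in lymphoma 1, and neither gene's groups overlapped. Nid1, nidogen, the protein that links laminin to collagen IV, measured 9.72, 8.71 and 8.46 in the lymphomas, against 4.95, 5.13 and 5.01 in DP thymocytes, a difference of 3.93 ± 0.47 (adjusted p = 0.00157). Lama4, the laminin chain of blood vessels, differed by 1.87 ± 0.18 (adjusted p = 4.99e-04). Lamc1, a gamma chain found in most laminins, overlapped between the groups, at 8.59, 7.53 and 7.63 in the lymphomas and 7.91, 7.98 and 8.15 in DP thymocytes, a difference of -0.10 ± 0.44 (adjusted p = 0.926).

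Promoter windows from RefSeq matched 19 of the 35 genes. The CCAAT box was in 6 of the 19, or 31.6%, against 37.4% of the 32851 promoters of the same length. GGGCGG, the core letters of a GC box, was in 12, or 63.2%, against 35.7% of all promoters. TATAAA was in 1, or 5.26%, against 13.6%, and the CArG box, whose middle can hold TATAAA, was in 0, against 1.63%. Members were counted here as genes and the background as single promoters. Counted by promoter, GGGCGG was in 13 of 20 member windows, CCAAT in 6 and TATAAA in 1. Each motif was searched on both strands, and a match is a description of these letters and not of a bound factor. Col3a1 (chr1:45311288-45311587, plus strand) and Glycam1 (chr15:103565032-103565331, minus strand) are shown as the fibrillar collagen and the endothelial member with the largest differences in the lymphomas, with CCAAT and TATAAA, read on either strand, in capitals.
Col3a1: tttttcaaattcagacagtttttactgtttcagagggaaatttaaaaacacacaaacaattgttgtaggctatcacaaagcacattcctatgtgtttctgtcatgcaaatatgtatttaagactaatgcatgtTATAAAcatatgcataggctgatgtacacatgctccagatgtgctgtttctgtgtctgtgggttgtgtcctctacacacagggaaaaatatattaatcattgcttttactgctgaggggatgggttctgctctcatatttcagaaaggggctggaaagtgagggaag
Glycam1: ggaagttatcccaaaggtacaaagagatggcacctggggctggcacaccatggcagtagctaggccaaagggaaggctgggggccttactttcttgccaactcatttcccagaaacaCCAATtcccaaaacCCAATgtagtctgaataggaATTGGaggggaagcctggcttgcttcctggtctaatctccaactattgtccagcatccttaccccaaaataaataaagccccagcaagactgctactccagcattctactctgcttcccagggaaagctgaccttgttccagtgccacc

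The Col3a1 window held TATAAA in 1 copy and CCAAT in 0, and the Glycam1 window held 3 copies of CCAAT. The shares of members and of all promoters were not tested against each other.

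Among the 9 secreted glycoproteins and inhibitors, 6 were called higher. Serping1, the inhibitor of complement C1 and of plasma kallikrein, measured 12.83, 10.15 and 11.47 in unsorted lymphomas 1, 2 and 3, against 5.04, 5.15 and 5.07 in DP thymocytes, a difference of 6.39 ± 0.70 (adjusted p = 0.00105). Clu, the secreted chaperone clusterin, measured 14.12, 12.26 and 13.63 in the lymphomas, against 7.22, 6.91 and 7.15 in DP thymocytes, a difference of 6.24 ± 0.47 (adjusted p = 1.79e-04). Neither gene's groups came near each other. Timp3, a matrix-bound inhibitor of metalloproteinases, differed by 3.13 ± 0.52 (adjusted p = 0.00699), and Mgp, an inhibitor of calcification, by 3.08 ± 0.22 (adjusted p = 1.27e-04). Fn1, fibronectin, averaged 9.45 ± 1.42 (SD, n = 3) in the lymphomas and 6.55 ± 0.08 (SD, n = 3) in DP thymocytes (adjusted p = 0.0458). Sparcl1, a relative of SPARC found around vessels, differed by 2.53 ± 0.36 (adjusted p = 0.00315). Thbs1, thrombospondin 1, an inhibitor of vessel growth, differed by 1.33 ± 0.48 and did not pass (adjusted p = 0.115).

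Of the 5 endothelial members, 3 were called higher. Glycam1, a mucin-like ligand of L-selectin, measured 10.87, 9.28 and 12.19 in unsorted lymphomas 1, 2 and 3, against 4.95, 4.93 and 4.97 in DP thymocytes, a difference of 5.83 ± 0.60 (adjusted p = 8.31e-04). Kdr, the main receptor for VEGF on endothelium, measured 9.54, 9.13 and 9.75 in the lymphomas, against 7.21, 7.01 and 6.95 in DP thymocytes, a difference of 2.42 ± 0.54 (adjusted p = 0.0234). Cdh5, the cadherin of endothelial junctions, differed by 1.86 ± 0.46 (adjusted p = 0.0341). Emcn, an endothelial sialomucin, lay above every DP array in all 3 lymphomas, at 6.60, 6.46 and 7.61 in the lymphomas, against 5.93, 5.79 and 5.62 in DP thymocytes, without passing the test (difference 1.11 ± 0.36, adjusted p = 0.0835). Pecam1, CD31, which leukocytes carry besides endothelium, overlapped between the groups, with a difference of 0.07 ± 0.26 (adjusted p = 0.91).

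All 4 fibroblast and mural cell genes were called. Pdgfra, a growth factor receptor of fibroblasts, measured 10.76, 9.15 and 10.44 in the lymphomas and 6.17, 6.33 and 6.44 in DP thymocytes, a difference of 3.80 ± 0.39 (adjusted p = 8.09e-04). Acta2, smooth muscle actin, differed by 2.70 ± 0.27 (adjusted p = 7.31e-04), and Tagln, transgelin of smooth muscle, by 2.38 ± 0.25 (adjusted p = 8.79e-04). Pdgfrb, the receptor of mural cells, had the smallest difference of the 26, 1.02 ± 0.20 (adjusted p = 0.0135). Cxcl12, the chemokine that retains CXCR4-bearing cells, measured 10.89, 9.86 and 10.48 in the lymphomas, against 6.32, 6.36 and 6.57 in DP thymocytes, a difference of 3.99 ± 0.71 (adjusted p = 0.00954).

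**Figure D2:**
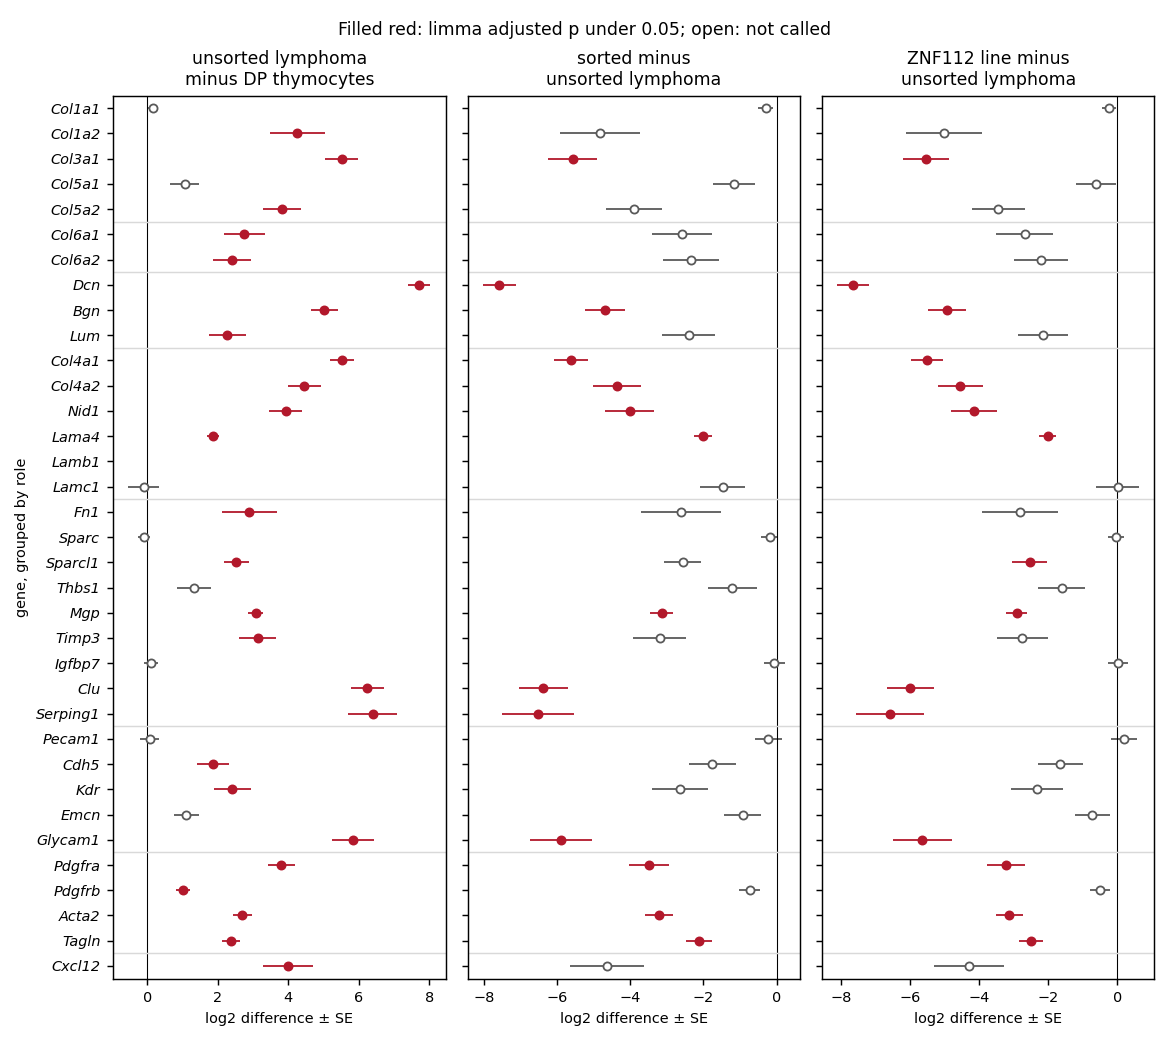
Log2 difference of each gene with its standard error (limma) in 3 comparisons, one per panel: unsorted lymphomas minus DP thymocytes, sorted lymphoma minus unsorted lymphomas, and the cell line minus unsorted lymphomas. Filled red points passed an adjusted p of 0.05; the 26 called points of the first panel lie right of 0, the 14 and 15 of the others lie left of it, and all 3 panels share the unsorted arrays. Lamb1 has no point because it was not tested.

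Several genes depended on the probe set that stood for them, since 24 of the 35 had more than 1, 74 in all. For 4 genes the chosen probe set differed by under 0.5 while another probe set of the gene differed by over 2. Igfbp7, an insulin-like growth factor binding protein of vessels, overlapped on its chosen probe set (difference 0.11 ± 0.20, adjusted p = 0.786), whereas its probe set 1423584_at measured 11.11, 10.001 and 10.83 in unsorted lymphomas 1, 2 and 3, against 5.50, 5.51 and 5.67 in DP thymocytes, a difference of 5.09 ± 0.49 (adjusted p = 6.17e-04). Sparc, a collagen-binding glycoprotein, was flat on its chosen probe set (difference -0.09 ± 0.16, adjusted p = 0.794), while 1448392_at differed by 4.91 ± 1.04 (adjusted p = 0.0197) and 1416589_at by 3.65 ± 0.76 (adjusted p = 0.0189). Lamb1, a laminin beta chain, was not tested on its chosen probe set but differed by 2.48 ± 0.31 on 1424114_s_at (adjusted p = 0.0022). For Col1a1, 1455494_at differed by 2.15 ± 0.91 and did not pass (adjusted p = 0.169).

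Of the 57 probe sets of members that passed the filter, 42 were called higher. With each probe set tested on its own, an alternative added after the data were seen, 29 members had at least 1 probe set called higher, against 16.4% of all genes called in either direction under the same rule. Members with no called probe set were Col1a1, Col5a1, Emcn, Lamc1, Pecam1 and Thbs1.

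**Figure D3:**
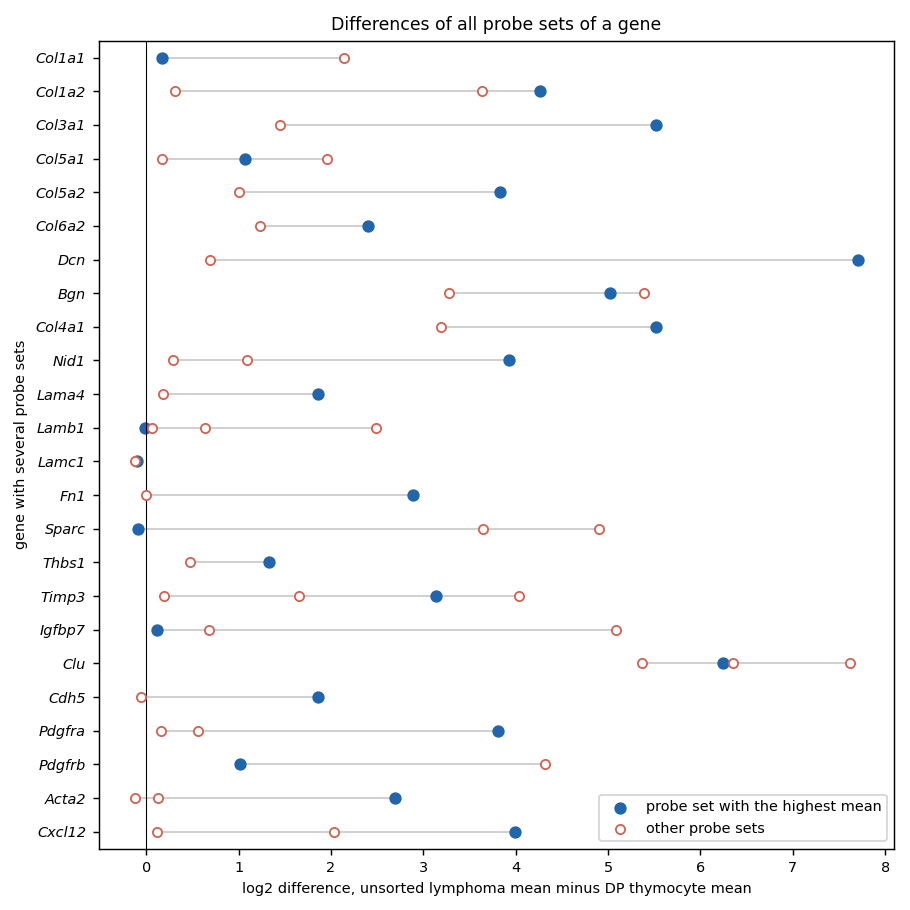
Log2 difference, unsorted lymphoma minus DP thymocytes, of every probe set of the genes with more than 1 probe set; filled blue points are the probe sets that stood for the gene and open points the others. For Col1a1, Lamb1, Sparc and Igfbp7 the chosen probe set lies under 0.5 while another lies over 2.

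The 3 unsorted lymphomas did not carry these genes equally. Lymphoma 1 was the highest of the 3 in 25 of the 34 genes, lymphoma 2 in 3 and lymphoma 3 in 6, where 38.6%, 24.6% and 36.7% of all genes tested were highest in that array. The lowest value fell to lymphoma 3 in 19 genes, to lymphoma 2 in 14 and to lymphoma 1 in 1. The share of all genes lowest in each array was not counted. By role the counts differed: lymphoma 3 exceeded lymphoma 1 in 4 of 5 endothelial members (Glycam1, Kdr, Emcn and Pecam1) and in 2 of the other 29 (Sparcl1 and Igfbp7), against 47.3% of all genes tested. The order of Igfbp7 depended on the probe set: in lymphomas 3 and 1, 1423584_at measured 10.83 and 11.11, and 1423585_at 6.11 and 5.71. Glycam1 measured 12.19 in lymphoma 3 and 10.87 in lymphoma 1, while Col1a2 measured 9.64 in lymphoma 3 and 12.53 in lymphoma 1.

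Of 27 other endothelial genes tested, 5 were higher in lymphoma 3 than in lymphoma 1, and of 22 other matrix genes, 6 were. Of 12 macrophage markers, 0 were, and their summed intensity was 63091 in lymphoma 1, 27044 in lymphoma 2 and 34089.6 in lymphoma 3. The part of macrophages in the order of the tumours was not tested. With 1 array per tumour the differences between tumours have no replicate check.

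**Figure D4:**
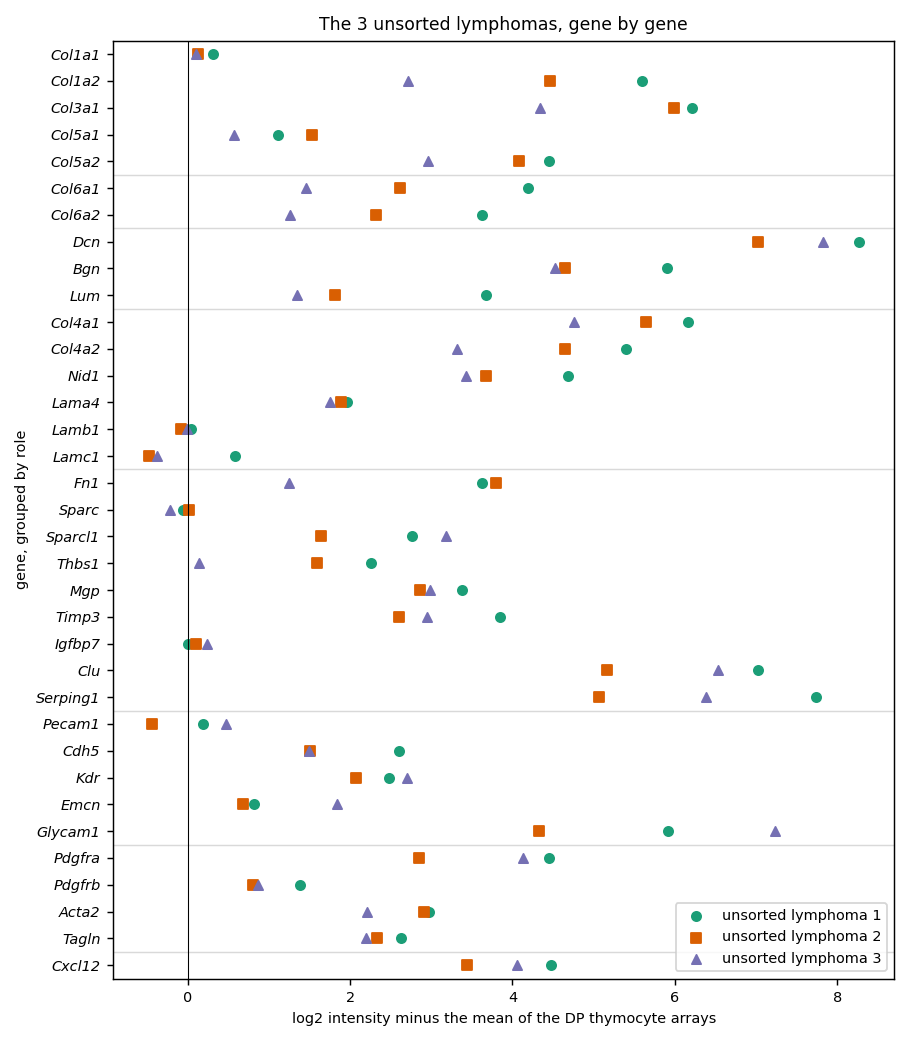
Log2 intensity of each gene in unsorted lymphomas 1, 2 and 3 minus the mean of the DP arrays, grouped by role. Lymphoma 1 is the rightmost point in most rows, and lymphoma 3 is the rightmost for Glycam1, Kdr, Emcn, Pecam1, Sparcl1 and Igfbp7.

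The sorted lymphoma was profiled to ask whether sorting for GFP+Thy1+DP+ cells changes the measured expression. Of the 34 genes, 14 were lower in it than in the unsorted lymphomas and 0 were higher (limma, Benjamini-Hochberg adjusted p under 0.05), while 0.594% of all genes tested were called lower and 0.0626% higher. The median log2 difference was -2.62, against 0.05 over all genes. The sorted array lay below each of the 3 unsorted arrays in 32 of the 34 genes, as it did in 26.9% of all genes, and above each of them in 0, against 35.8% of all genes. The other 2 genes, Igfbp7 and Pecam1, lay inside the range of the unsorted arrays. For Igfbp7 this holds on its chosen probe set only: 1423584_at measured 5.55 in the sorted lymphoma, against 11.11, 10.001 and 10.83 in the unsorted ones. The counts and the median include the 11 genes that exceeded the filter level in unsorted lymphoma arrays alone. By that rule the sorted array was under this level for each of them, Col3a1, Dcn, Serping1 and Glycam1 of the 14 included. The distance of these figures from those of all genes is thus partly set by the filter. The comparison rests on 1 sorted array, whose spread is assumed to match that of the other groups and whose independence of the unsorted samples is not stated, and it shares the unsorted arrays with the comparison to DP thymocytes. With only the arrays compared in the fit, 0 genes passed and 22 of the 34 had an unadjusted p under 0.05, and with no filter on low values 8 passed.

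By role, the 14 were 1 fibrillar collagen, 2 proteoglycans, 4 basement membrane genes, 3 secreted glycoproteins, 1 endothelial gene and 3 fibroblast and mural genes. Dcn measured 6.05 in the sorted lymphoma, against 14.19, 12.96 and 13.75 in unsorted lymphomas 1, 2 and 3, a difference of -7.58 ± 0.46 (SE; adjusted p = 0.00137). Col4a1 measured 5.84 in the sorted lymphoma against 12.10, 11.58 and 10.70 in the unsorted ones (difference -5.62 ± 0.47, adjusted p = 0.00375), and Col4a2, read from the adjoining promoter shown above, 5.18 in the sorted lymphoma against 10.49, 9.73 and 8.40 in the unsorted ones (difference -4.37 ± 0.66, adjusted p = 0.0329). The sorted tumour was thus outside the range of the unsorted ones for each of these genes. Lama4 measured 6.47 in the sorted lymphoma against 8.57, 8.50 and 8.36 in the unsorted ones (adjusted p = 0.0144), Mgp 6.06 in the sorted lymphoma against 9.51, 8.99 and 9.11 in the unsorted ones (adjusted p = 0.00926), and Acta2 7.07 in the sorted lymphoma against 10.56, 10.50 and 9.80 in the unsorted ones (adjusted p = 0.0133). Col1a2 and Cxcl12 were among the genes that did not pass despite large differences, -4.83 ± 1.09 (adjusted p = 0.133) and -4.64 ± 1.01 (adjusted p = 0.117). In 9 of the 14 the sorted array was under log2 6.33, which leaves the size of the difference uncertain.

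Against DP thymocytes, the sorted lymphoma had 0 of 34 genes called in either direction by limma and a median difference of -0.07, while 2.36% of all genes tested were called (1.42% higher and 0.946% lower). At an unadjusted p under 0.05 there was 1 gene. In 32 of the 34 it lay within 0.5 log2 of the range of the DP arrays, as did 77.3% of all genes. The exceptions were Lamc1, at 6.44 in the sorted lymphoma and 7.91, 7.98 and 8.15 in DP thymocytes (difference -1.57 ± 0.62, adjusted p = 0.384), and Cxcl12, at 5.77 in the sorted lymphoma against 6.32, 6.36 and 6.57 in DP thymocytes (difference -0.65 ± 1.01, adjusted p = 1). Both were lower in the sorted array. Of the 35 genes, 14 exceeded the filter level in the sorted lymphoma and 14 to 15 in the DP arrays. The 11 genes that entered the test through unsorted arrays alone were under it in both groups by that rule. Much of the closeness of the sorted lymphoma to DP thymocytes is thus between dim values, where it cannot show similar expression. With only these arrays in the fit, 4 genes were called, all lower in the sorted lymphoma: Col1a2, Lamc1, Acta2 and Cxcl12. The number of all genes called in this comparison also moved widely between fits, as given below. The share of all genes in that one fit is not given, so the 4 calls cannot be read as particular to the members.

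Pdgfrb read differently on its 2 probe sets. The chosen one measured 7.82 in the sorted lymphoma, 8.92, 8.34 and 8.41 in the unsorted lymphomas and 7.48, 7.61 and 7.52 in DP thymocytes. The other, 1436970_a_at, measured 8.19 in the cell line, 8.16 in the sorted lymphoma and 10.29, 9.17 and 9.53 in the unsorted lymphomas, against 5.15, 5.43 and 5.45 in DP thymocytes. On this probe set every malignant array of the T cell side lay above every DP array, and the sorted lymphoma exceeded DP thymocytes by 2.82 ± 0.48 (adjusted p = 0.0283), the only member called there when each probe set was tested on its own, where 2.62% of all genes were. The same probe set was lower in LSC, at 6.60 and 5.66, than in HSC, at 7.53 and 7.89 (difference -1.58 ± 0.42, adjusted p = 0.0493).

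The ZNF112 cell line also read low. Of the 34 genes, 15 were lower in the line than in the unsorted lymphomas and 0 were higher, against 1.5% lower and 0.766% higher among all genes tested (2.27% in either direction). The median difference was -2.72. The line lay below every unsorted lymphoma in 30 of the 34, as did 28.5% of all genes, and within 0.5 log2 of the DP range in 33, as did 63.8% of all genes. For the 11 genes that entered the test through unsorted arrays alone, the line was under log2 6.33 by that rule. The counts of genes lower in the line than in the unsorted lymphomas are thus partly set by the filter. The line was above that level in 13 of the 35 genes, so much of its closeness to DP thymocytes is between dim values. Of the 15 called genes, 14 were those called in the sorted lymphoma, a comparison with the same unsorted arrays, and the other was Sparcl1, at 5.11 in the line and 7.88, 6.77 and 8.31 in the lymphomas (difference -2.54 ± 0.50, adjusted p = 0.0438). Col1a2 was the exception to the DP range, at 6.18 in the line and 7.19, 6.78 and 6.81 in DP thymocytes. In 10 of the 15 the line was under log2 6.33. The line too is 1 array, and with only the arrays compared in the fit 0 genes passed, with 21 at an unadjusted p under 0.05.

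In the stem cell arrays, 9 and 2 of the 35 members were above log2 6.33 in LSC 1 and 2 and 15 and 12 in HSC 1 and 2, a level set over all 12 arrays that lies above the medians of these 4. Of the 34, 4 were lower in LSC than in HSC and 1 was higher, while 6.73% of all genes tested were called lower and 4.27% higher, 11% in either direction. The median difference was -0.10. Col4a1 measured 4.54 and 4.99 in LSC 1 and 2, against 8.03 and 7.99 in HSC 1 and 2, a difference of -3.25 ± 0.41 (SE; limma, adjusted p = 0.00256). Col4a2 measured 4.46 and 4.16 in LSC against 7.26 and 6.61 in HSC (difference -2.62 ± 0.57, adjusted p = 0.0236). The pair that shares a promoter region was thus under log2 6.33 in both LSC arrays and above log2 6.33 in both HSC arrays. Col5a1 measured 6.56 and 5.20 in LSC against 7.55 and 8.49 in HSC (difference -2.14 ± 0.50, adjusted p = 0.0308), and Emcn, which HSC are also known to carry, 4.73 and 5.31 in LSC against 6.24 and 7.05 in HSC (difference -1.63 ± 0.44, adjusted p = 0.0492). Tagln was higher, at 5.85 and 6.74 in LSC against 5.02 and 5.20 in HSC (difference 1.19 ± 0.31, adjusted p = 0.043).

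These 5 calls rest on 4 arrays. Without HSC 1 or without HSC 2, 2 genes were called in each case, with only the 4 arrays in the fit 0 were called (6 at an unadjusted p under 0.05), and with array weights by group 0 were called (4). The LSC arrays lay 1 log2 unit or more apart in 10 of the 35 genes, and LSC 1 was the higher in all 10. Col1a2 measured 7.10 and 4.72 in LSC 1 and 2, and Cxcl12 6.96 and 3.80. HSC arrays were that far apart in 6 genes, with HSC 1 higher in all 6, among them Kdr at 8.08 and 5.60 in HSC 1 and 2. The share of all genes so far apart was not counted. The root mean square SD of the tested members was 0.764 in LSC, against 1.015 over all genes, and 0.609 in HSC, against 0.554. The spread between LSC arrays was thus not particular to the members. Markers of macrophages were also higher in LSC 1 and HSC 1, with summed intensities of 15444 in LSC 1 and 3653 in LSC 2, and of 31056 in HSC 1 and 5089 in HSC 2. Markers of megakaryocytes and platelets summed to 2874 and 496 in LSC 1 and 2 and to 7309 and 8375 in HSC 1 and 2, and 5 of 9 tested were lower in LSC. The part of these cells in the members' values was not tested.

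**Figure D5:**
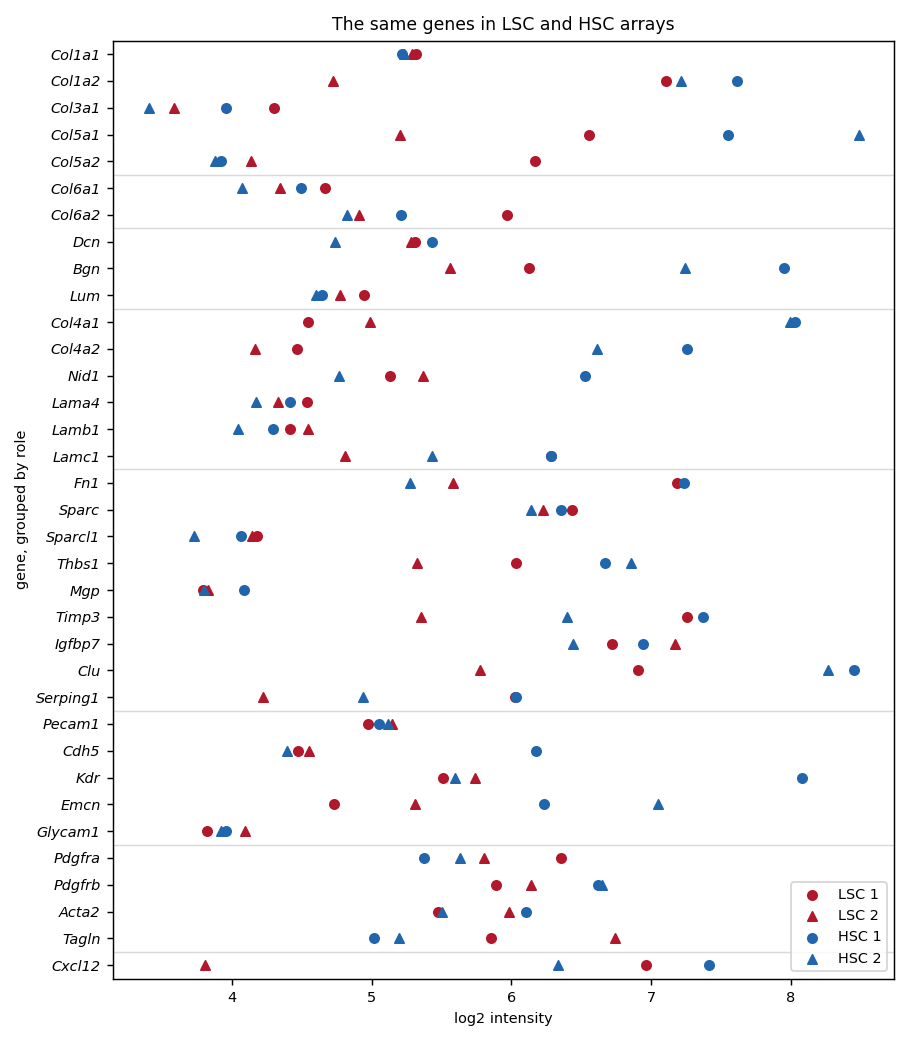
Log2 intensity of the 35 genes in the 2 LSC arrays (red) and the 2 HSC arrays (blue), grouped by role; circles are replicate 1 and triangles replicate 2. Col4a1, Col4a2, Col5a1 and Emcn have both LSC points left of both HSC points, and Tagln has them right of both; in Col1a2, Cxcl12 and Timp3 the 2 LSC arrays lie far apart.

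The difference between both disease comparisons, unsorted lymphoma minus DP and LSC minus HSC, was itself tested, and it was positive in 22 of the 34 genes and negative in 0 at an adjusted p under 0.05 (limma), against 7.59% positive and 4.98% negative among all genes tested, 12.6% in either direction. It reached 8.77 ± 0.52 for Col4a1, which was higher in lymphoma than in DP thymocytes and lower in LSC than in HSC (adjusted p = 3.24e-04). Emcn and Col5a1, not called in the lymphomas, passed here with 2.74 ± 0.56 (adjusted p = 0.0184) and 3.21 ± 0.65 (adjusted p = 0.0167). Some of the 22 passed the filter through unsorted lymphoma arrays alone. Where a gene was dim in all LSC and HSC arrays, the contrast nearly restates the lymphoma difference. Dcn, with LSC minus HSC at 0.21, gave 7.495 here, against 7.71 for unsorted lymphoma minus DP. Without DP array 2, or with array weights by group, 14 genes were called.

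Other genes of the same pathways were listed by function, with earlier results of these data known, and read beside the members. Of 22 other matrix genes tested, 9 were higher in the unsorted lymphomas than in DP thymocytes and 0 were lower. Of 17 genes of matrix processing, 9 were higher and 1 was lower. Other fibroblast and reticular cell genes were higher in 7 of 16, other endothelial genes in 20 of 27 with 1 lower, and other mural cell genes in 3 of 7. All 5 shares of higher genes exceeded the 6.84% of all genes. Some listed genes, among them Pdpn, Cav1 and Rgs5, exceeded the filter level in unsorted lymphoma arrays alone. Being high there let those genes into the test, so this excess is partly set by the filter.

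Vcan, versican, a large proteoglycan of loose matrix, was higher by 5.75 ± 0.36 (adjusted p = 7.80e-05), and Col6a3, the long chain of collagen VI, by 4.19 ± 0.56 (adjusted p = 0.00258). Mmp2, a gelatinase, was higher by 4.35 ± 0.50 (adjusted p = 0.00135) and Serpinh1, the collagen chaperone HSP47, by 2.99 ± 0.41 (adjusted p = 0.00293). Cxcl13, the B cell chemokine of follicular stroma, was higher by 5.69 ± 0.76 (adjusted p = 0.0026), and Pdpn, podoplanin of reticular fibroblasts and lymphatics, by 3.27 ± 0.27 (adjusted p = 2.35e-04). On the vessel side, Vcam1, a leukocyte adhesion receptor of activated endothelium and stroma, was higher by 6.39 ± 1.499 (adjusted p = 0.0286), and Cav1, the coat protein of caveolae, by 5.003 ± 0.43 (adjusted p = 3.16e-04). Rgs5, a pericyte gene, was higher by 3.84 ± 0.51 (adjusted p = 0.00247). The genes that were lower, named after their values were seen, were Plod2, a collagen lysyl hydroxylase, at -1.73 ± 0.38 (adjusted p = 0.0233), and Icam2, an adhesion molecule shared by endothelium and lymphocytes, at -2.09 ± 0.29 (adjusted p = 0.00313).

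Of the genes in these 5 lists, Vcan was the only one called higher in the sorted lymphoma than in DP thymocytes. It measured 7.81 in the cell line, 11.63 in the sorted lymphoma and 12.24, 11.62 and 10.78 in unsorted lymphomas 1, 2 and 3, against 5.72, 5.64 and 6.04 in DP thymocytes. The sorted array lay inside the range of the unsorted ones and far above DP thymocytes, by 5.83 ± 0.51 (adjusted p = 0.0013). In LSC it measured 8.31 and 8.997, against 3.98 and 3.99 in HSC (difference 4.67 ± 0.44, adjusted p = 9.74e-04). Other listed genes, named after their values were seen, were also high in the sorted array without passing that test. Fbln2, fibulin 2, measured 10.77 in the cell line, 11.14 in the sorted lymphoma and 10.95, 11.03 and 11.62 in the unsorted lymphomas, against 9.37, 9.36 and 8.75 in DP thymocytes (sorted minus DP 1.98 ± 0.58, adjusted p = 0.164). Kcnj8, a potassium channel subunit of mural cells, measured 8.86 in the cell line, 10.75 in the sorted lymphoma and 8.71, 8.52 and 8.43 in the unsorted lymphomas, against 6.35, 6.50 and 6.19 in DP thymocytes (sorted minus DP 4.40 ± 0.99, adjusted p = 0.0679).

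Between sorted and unsorted lymphomas, 2 of 22 other matrix genes, 1 of 17 genes of matrix processing, 2 of 16 fibroblast and reticular cell genes, 2 of 27 other endothelial genes and 0 of 7 other mural cell genes were lower at an adjusted p under 0.05 in the same limma fit, against 0.594% of all genes tested. None was higher.

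Macrophage markers were higher in the unsorted lymphomas, as most members were. Of 12 macrophage genes tested, 9 were higher in the unsorted lymphomas and 0 lower, and the 13 listed genes with a probe set summed to 3734 in the sorted lymphoma, 27044 to 63091 in the unsorted lymphomas, 2204 in the cell line and 1416 to 1585 in DP thymocytes. The members themselves summed to 2966 in the sorted lymphoma, 34787 to 78700 in the unsorted lymphomas, 3412 in the cell line and 3214 to 3331 in DP thymocytes. Of 9 B cell genes, 3 were higher in the unsorted lymphomas, namely H2-Aa, H2-Ab1 and Cd74, which other antigen-presenting cells carry too. Of those not called, Cd79a, Cd79b, Ms4a1, Pax5 and Cd22 lay above all DP arrays in lymphoma 3, and Ighm did not. Ms4a1 measured 6.59, 6.02 and 10.74 in unsorted lymphomas 1, 2 and 3, against 5.59, 5.78 and 5.68 in DP thymocytes. Of 9 megakaryocyte genes 1 was, Vwf, which endothelium also makes, and of 5 thymic epithelium genes 1 was. Between sorted and unsorted lymphomas, 1 of 12 macrophage genes, 1 of 9 B cell genes and 0 of 9 megakaryocyte genes were called lower. Macrophages do make some of the members, such as Fn1 and Thbs1, and their part in these values was not tested.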

How the data were processed

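RNA of 12 mouse samples was extracted with Trizol, amplified and hybridised to 1 Affymetrix array each, per the labels' protocols. The authors deposited a linear-scale intensity per probe set, and RMA, without a version, is named in the submitters' processing notes. Tests used log2 of each intensity. The table held 45101 probe sets: 64 controls, 34945 with 1 symbol in the platform annotation, 932 with several and 9160 unnamed, of which only those with 1 symbol were used; 34741 matched RefSeq and 0 symbols changed. Value columns left unused numbered 0. With R 4.3.3, limma 3.58.1 (two-sided, moderated by eBayes) fitted 6 group means over 12 arrays, so the lone sorted and cell line arrays borrow the spread of the other groups. A gene was tested if over log2 6.33 (intensity 80.4) in at least 2 arrays, and an adjusted p under 0.05 (Benjamini-Hochberg over all 12786 genes) was a call. The script was tested on simulated data.

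The 35 members with a probe set were described by role; from each of 5 lists of related genes at most 4 called genes with the largest differences were eligible to be named. The members and lists were chosen with earlier results of these data known. Groups came from the labels, which call replicates biological; DP, HSC and LSC samples were pools of mice. No pairing was used, because the labels do not say that replicate numbers mark a shared mouse, litter or day. Same-numbered arrays did not deviate together, but with so few arrays per group this cannot exclude pairing. The number of arrays limits the precision; depth does not apply. Promoters are RefSeq's, GRCm38.p6. The alternatives were the filter, the probe set rule, quantile scaling, array weights, the arrays in the fit, a replicate block and leaving out each array.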

Additional observations from a re-analysis of the deposited data

Results flagged for a closer look

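For 22 genes the test of the difference itself found that the change in the unsorted lymphomas over DP thymocytes differed from the change in LSC over HSC (limma interaction contrast, Benjamini-Hochberg adjusted p under 0.05 over all genes tested; 3 lymphomas, 3 DP, 2 LSC and 2 HSC arrays). The difference was positive in all 22, on the log2 scale, against 7.59% positive and 4.98% negative among all genes tested. Among matrix genes it was 5.76 for Col1a2, 5.25 for Col3a1 and 3.21 for Col5a1, 7.495 for Dcn and 6.78 for Bgn. Among basement membrane genes it was 8.77 for Col4a1, 7.08 for Col4a2, 4.33 for Nid1 and 1.73 for Lama4. For secreted proteins it was 2.27 for Sparcl1, 3.21 for Mgp, 3.71 for Timp3, 8.26 for Clu and 6.76 for Serping1. The endothelial genes gave 2.64 for Cdh5, 3.63 for Kdr, 2.74 for Emcn and 5.81 for Glycam1. Fibroblast and mural genes gave 3.23 for Pdgfra, 1.64 for Pdgfrb and 2.77 for Acta2, and Cxcl12 gave 5.48. The lymphomas of this contrast were unsorted and the other 3 groups were sorted, so tissue makeup and disease cannot be told apart in it.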

How the results depend on the processing

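Of 3042 recomputed values of single genes over all alternatives, 2774 kept direction and side of the threshold, 225 lost the call, 40 gained one and 3 reversed. The reversed values all came from averaging the probe sets of a gene: Sparc then differed by 2.82 between unsorted lymphoma and DP thymocytes, and Igfbp7 by -1.94 between the cell line and unsorted lymphoma and by 2.13 in the difference of both comparisons. Counting the sorted lymphoma as a 4th replicate left 0 genes called over DP thymocytes, with 27 at an unadjusted p under 0.05; by its construction this puts the low sorted array into the lymphoma group. Apart from that setting, 19 of the 26 genes called between unsorted lymphoma and DP thymocytes were called in each of 16 others, and Cdh5, Col6a1, Col6a2, Fn1, Kdr, Lum and Pdgfrb lost the call in at least 1.

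For sorted against unsorted lymphoma, 8 genes were called with no filter, 0 (22 at an unadjusted p under 0.05) with only the arrays compared and 0 (27) with the replicate number as a block. For the cell line these were 0 (21) with only the arrays compared and 1 with the replicate block. Sorted lymphoma against DP thymocytes gave 4 with only the arrays compared and 1 with each probe set tested on its own. LSC against HSC gave 0 with only the arrays compared (6) and 0 with array weights by group (4), and 2 with the replicate block. The difference of both comparisons gave 14 with array weights. Unsorted lymphoma against DP thymocytes gave 22 and the difference gave 17 with the replicate block. Same-numbered arrays correlated by 0.014, 0.001, -0.020 and 0.098 in their deviations. That shows no pairing, but with 2 or 3 arrays per group it cannot exclude one. The cause of these shifts was not tested.

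Leaving out 1 array at a time gave 19 to 25 genes for unsorted lymphoma against DP thymocytes, 10 to 15 for sorted against unsorted, 14 to 17 for the cell line, 0 for sorted lymphoma against DP thymocytes, 2 to 7 for LSC against HSC, and 14 to 23 for the difference, with 7 and 23 without LSC 1. Over all genes, calls numbered 1571 for unsorted lymphoma against DP thymocytes (635 to 4205 over the alternatives), 84 for sorted against unsorted (0 to 248), 290 for the cell line (0 to 517), 302 for sorted lymphoma against DP thymocytes (24 to 4082), 1407 for LSC against HSC (0 to 3330) and 1607 for the difference (542 to 3402). Where probe sets lie under log2 6.33, the size of a difference is uncertain.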

Other observations

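Epcam, an adhesion molecule of epithelia that some thymocytes also carry, was the 1 thymic epithelium marker of 5 tested that was higher in the unsorted lymphomas than in DP thymocytes; it is described here because its values stood out once seen. It measured 11.28 in the cell line, 12.07 in the sorted lymphoma and 12.42, 10.26 and 12.004 in unsorted lymphomas 1, 2 and 3, against 6.62, 6.30 and 6.86 in DP thymocytes. Unlike Dcn or Col4a1, it was thus high in the sorted lymphoma and in the line. Foxn1 and Psmb11, which define thymic epithelium, stayed under log2 6.33 in all 12 arrays.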
